A study of Homo sapiens with 6 samples.

Results

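The genes described here carry the unfolded protein response of the endoplasmic reticulum (ER) and the integrated stress response, which share the kinase EIF2AK3. The set was a fixed list of 41 gene symbols. For each symbol, the probe set with that single gene symbol and the highest mean signal over the 6 arrays was used. This gave values for 39 of the 41 genes, out of 11963 genes with such a probe set. DNAJB11 and PDIA5, an ER co-chaperone and an ER disulfide isomerase, had no single-symbol probe set and were not analysed here. The genes were read in 3 groups: 20 ER genes of folding, translocation and degradation (18 measured), 14 genes of the type driven by ATF4, and 7 sensors and regulators.

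Total RNA was measured on 6 single-colour Affymetrix 3′ arrays, in cells whose labels name the established oral squamous carcinoma line HSC2. The 3 arrays labelled MALT1 held RNA of cells stably transfected with cDNA of full-length wild-type MALT1, a paracaspase in NF-kappaB signalling, and the 3 arrays labelled mock held RNA of cells given only the vector. Both lines had been made earlier and were kept in DMEM with fetal bovine serum and penicillin/streptomycin, with no ER stressor, amino acid withdrawal or inhibitor named in the labels. The comparison was made to find genes responsive to MALT1. The labels do not say which promoter drove the cDNA, whether each line was 1 clone, or whether the 3 arrays came from separate cultures. The p-values therefore measure no more than the spread among these arrays, which could be technical.

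When unfolded proteins build up in the ER, the sensors ERN1, ATF6 and EIF2AK3 are activated, and the factors XBP1 and ATF6 raise the genes of chaperones, disulfide isomerases and the degradation machinery. EIF2AK3 and its sister kinases phosphorylate the initiation factor eIF2, which slows general translation and favours translation of ATF4. ATF4 in turn raises genes of serine, asparagine and one-carbon synthesis, amino acid import and transfer RNA charging, together with DDIT3 and PPP1R15A. Splicing of XBP1, cleavage of ATF6 and translation of ATF4 are steps that a transcript level on these arrays does not show.

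The arrays go against their labels in 2 ways. The MALT1 transcript was lower where the label says MALT1: its probe sets averaged 119.7 ± 11.3, 182.3 ± 10.2 and 179.5 ± 15.4 there, against 253.6 ± 25.0, 252.6 ± 4.34 and 217.2 ± 9.55 on the arrays labelled mock (SD, n = 3 each), and 2 of the 3 passed the test as lower. A transfected cDNA that lacks the probed stretch would not be seen, and probe positions were not analysed here. Of 18 genes listed as markers of luminal breast epithelium, 17 were called higher on the arrays labelled MALT1, against 21.1% of all genes. Their summed signal was 82422 to 90716 there, against 9174 to 9849 on the arrays labelled mock. The exception, PGR, was dim on all arrays, and FOXA1, TFF1, KRT19, GREB1, SPDEF and PRLR were dim on all mock arrays, which means no higher than 17.6, the top signal of a bacterial control gene (trp). Of 12 measured squamous markers, 10 were called lower, against 19.2% of all genes. Their sums were 16139 to 18028 on the arrays labelled MALT1 against 48772 to 53196 on the arrays labelled mock. Both marker lists were chosen with earlier results of these data known, so the counts are not an independent check. The part of these marker differences in every result below was not tested. The labels were kept as given, and whether the labels of the groups were exchanged, or whether the cells of either group are HSC2, was not tested. An exchange of the labels would turn the direction of every higher and lower call below.

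The array labelled MALT1 replicate 3 stood apart in brightness: its median signal was 79.0, against 69.3 and 70.6 on the other arrays labelled MALT1, and the arrays labelled mock had 64.1 to 68.2. The ACTB 3′ to 5′ ratio, a sign of RNA shortening, lay between 3.60 and 4.46 on the arrays labelled MALT1, against 3.59 and 3.98 on the arrays labelled mock. Precision is limited by the small number of arrays, and fewer cells of a kind cannot be told apart from less RNA per cell. Direction is always arrays labelled MALT1 minus arrays labelled mock, log2 fold changes are of signal plus 1, and a gene is called where limma gives an adjusted p under 0.05 over 22215 probe sets.

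Of the 39 measured stress genes, 12 were called higher, 11 lower and 16 in neither direction. Among all genes 40.4% were called, 21.1% as higher and 19.2% as lower. Of the 39, 37 lay at or above the median brightness of all probe sets, and 62.2% of these 37 were called, against 56.8% of all genes that bright. The members' share of calls was thus near that of equally bright genes, and called changes of at least 2-fold were less frequent. A change of at least 1.5-fold was called in 10 members, 4 higher and 6 lower, against 31.6% of all genes. A change of at least 2-fold was called in 4 members (10.3%), against 20.5% of all genes and 23.7% of the brighter ones. The median log2 fold change was 0.06 over the members and 0.08 over all genes, and the median size without sign was 0.45 over the members and 0.54 over all genes. At equal brightness the median size hardly differed, at 0.48 over the 37 brighter members and 0.49 over all brighter genes. The groups did not overlap in 31 of the 39 members, against 54.6% of all genes and 74.6% of the brighter genes. Without the array labelled MALT1 replicate 3 or any other single array, 7 to 11 members were called higher and 6 to 9 lower. With each array centred on its median, a setting that shifts the median of all probe sets from 0.08 to -0.05, the split was 5 higher and 10 lower. Of all 22215 probe sets, 3179 were called higher and 4193 lower in that setting, against 4130 and 3787 without it.

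**Figure D1:**
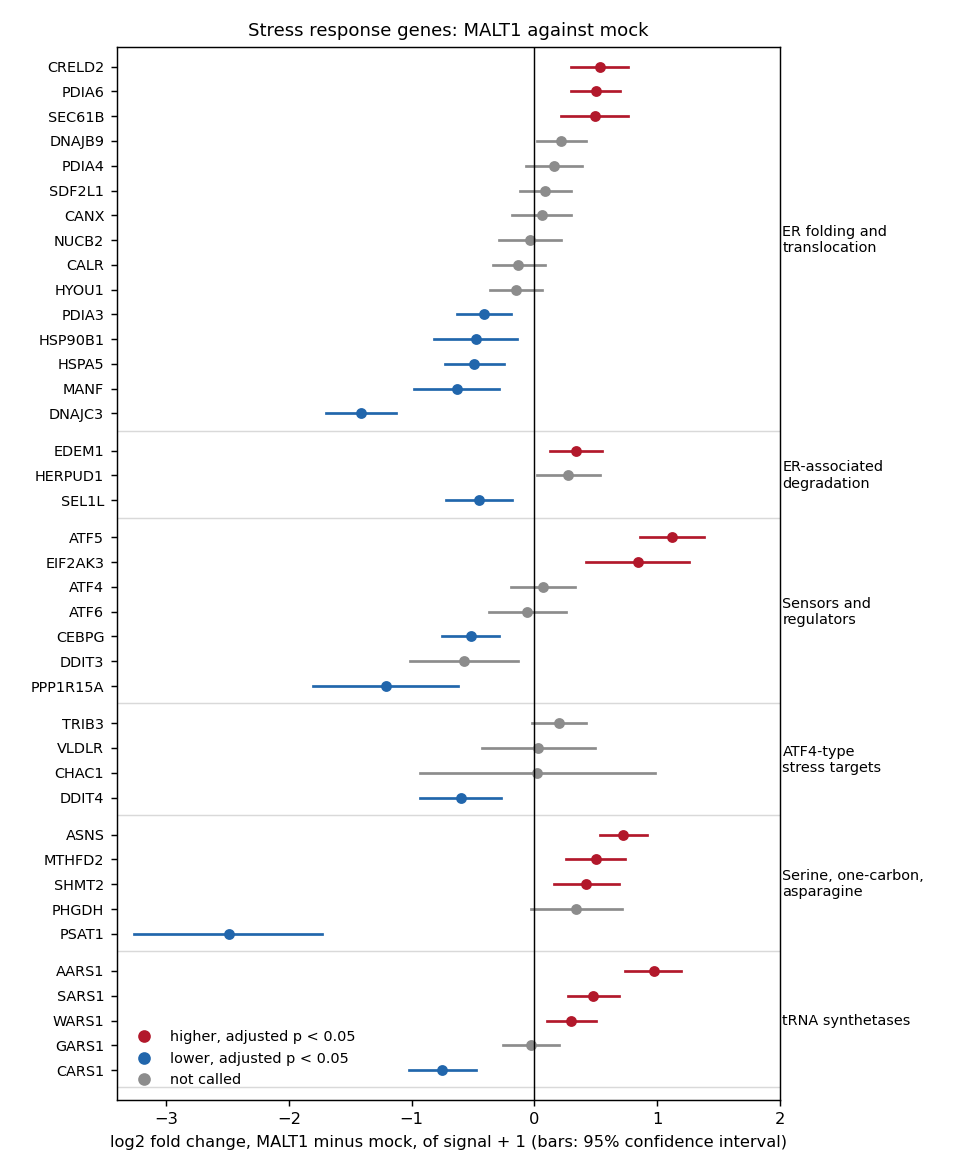
Log2 fold change of signal plus 1 (horizontal axis, arrays labelled MALT1 minus arrays labelled mock) for the 39 measured genes, grouped by role, with bars for the 95% confidence interval of the limma fit and colours for the call. Differences in both directions occur in the ER folding, ER degradation, regulator, serine and asparagine, and synthetase groups, from PSAT1 at -2.49 to ATF5 at 1.12.

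**Figure D2:**
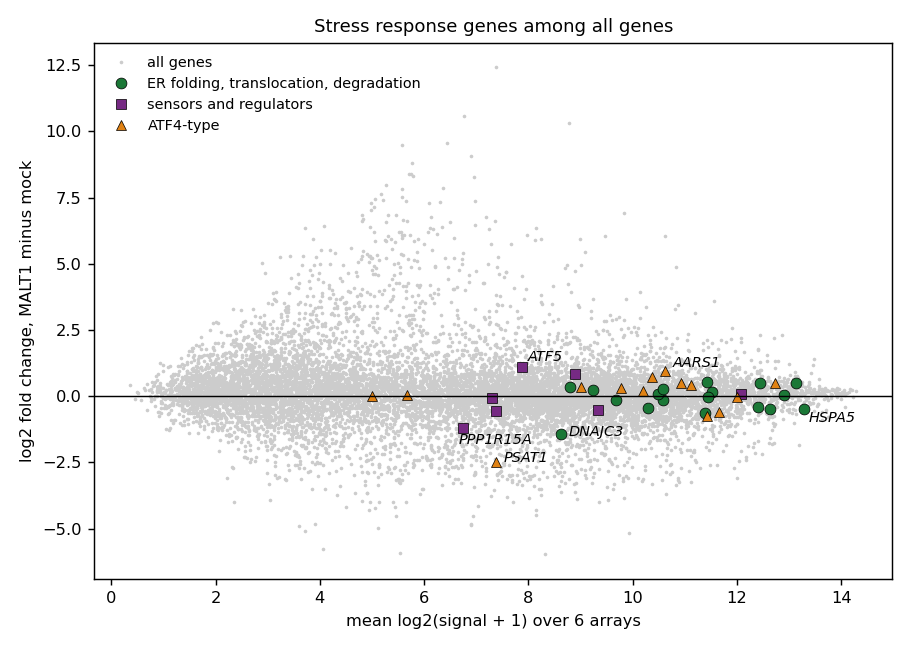
Log2 fold change (vertical axis, arrays labelled MALT1 minus arrays labelled mock) against mean log2(signal + 1) over the 6 arrays for all 11963 genes in grey, with the stress genes in colour by group. All but 2 of the 39 stress genes lie at or above the median brightness of all probe sets, and 4 changed by at least 2-fold.

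Among the sensors and regulators, ATF5 and EIF2AK3 were higher on the arrays labelled MALT1, CEBPG and PPP1R15A were lower, and ATF4, ATF6 and DDIT3 were not called. EIF2AK3, the ER-resident eIF2 kinase also called PERK, had signals of 697.1, 665.6 and 559.3 on the arrays labelled MALT1, against 426.7, 342.9 and 306.7 on the arrays labelled mock. The groups did not overlap, and the log2 fold change was 0.84 ± 0.17 (SE, adjusted p = 0.014). The adjusted p reached 0.0533 at most when single arrays were left out, and missed the threshold without MALT1 replicate 1, without MALT1 replicate 2 and without mock replicate 2.

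ATF4, the factor whose translation the eIF2 kinases favour, had signals of 4397, 4250 and 4537 on the arrays labelled MALT1, against 4563, 3811 and 4228 on the arrays labelled mock. The groups overlapped, with a log2 fold change of 0.07 (95% confidence interval -0.19 to 0.33, adjusted p = 0.664), and its sign turned to -0.06 with arrays centred on their medians. ATF5, a factor related to ATF4 and likewise regulated through eIF2, had signals of 340.8, 377.6 and 323.5 on the arrays labelled MALT1, against 168.3, 160.6 and 148.8 on the arrays labelled mock. Every array labelled MALT1 lay above every array labelled mock, and the gene was 2.17-fold higher (log2 fold change 1.12 ± 0.10 SE, adjusted p = 0.00108). Of its 3 probe sets, 2 were called higher, against a background of 35.6% of all probe sets called in either direction, and the third was dim on the arrays labelled mock.

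ATF6, the sensor that is cut to free a transcription factor, had signals of 144.1, 150.4 and 165.1 on the arrays labelled MALT1, against 141.2, 158.7 and 179.3 on the arrays labelled mock. These overlapped, with a log2 fold change of -0.06 (95% confidence interval -0.37 to 0.26). Its other probe set gave a different result: it averaged 66.6 ± 7.01 on the arrays labelled MALT1 and 160.5 ± 8.17 on the arrays labelled mock (SD, n = 3 each), a log2 fold change of -1.26 ± 0.11 (SE, adjusted p = 0.00095). The ATF6 level therefore depended on the probe set read.

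DDIT3, the pro-apoptotic factor CHOP, had signals of 164.3, 133.3 and 114.5 on the arrays labelled MALT1, against 202.9, 180.0 and 226.5 on the arrays labelled mock. All arrays labelled MALT1 lay below all arrays labelled mock, but the log2 fold change of -0.57 ± 0.17 (SE) missed the threshold with an adjusted p of 0.0552. It passed with brighter probe sets only (adjusted p = 0.0114), with an intensity trend (0.0146), with a pseudocount of 16 (0.0341), with the mean of all probe sets of each gene (0.0474) and without MALT1 replicate 1 (0.0373), and not under the other alternatives. CEBPG, a dimer partner of ATF4, had signals of 518.4, 519.0 and 572.1 on the arrays labelled MALT1, against 728.3, 796.9 and 779.2 on the arrays labelled mock, and was 1.43-fold lower (log2 fold change -0.52 ± 0.09 SE, adjusted p = 0.00948). PPP1R15A, the phosphatase subunit GADD34 that reverses eIF2 phosphorylation, had signals of 53.4, 95.4 and 66.8 on the arrays labelled MALT1, against 147.1, 171.5 and 170.7 on the arrays labelled mock. The groups of both genes were separate, and PPP1R15A was 2.31-fold lower (log2 fold change -1.21 ± 0.23 SE, adjusted p = 0.0128). Its dimmer probe set, at -0.97, was not called (adjusted p = 0.0919).

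**Figure D3:**
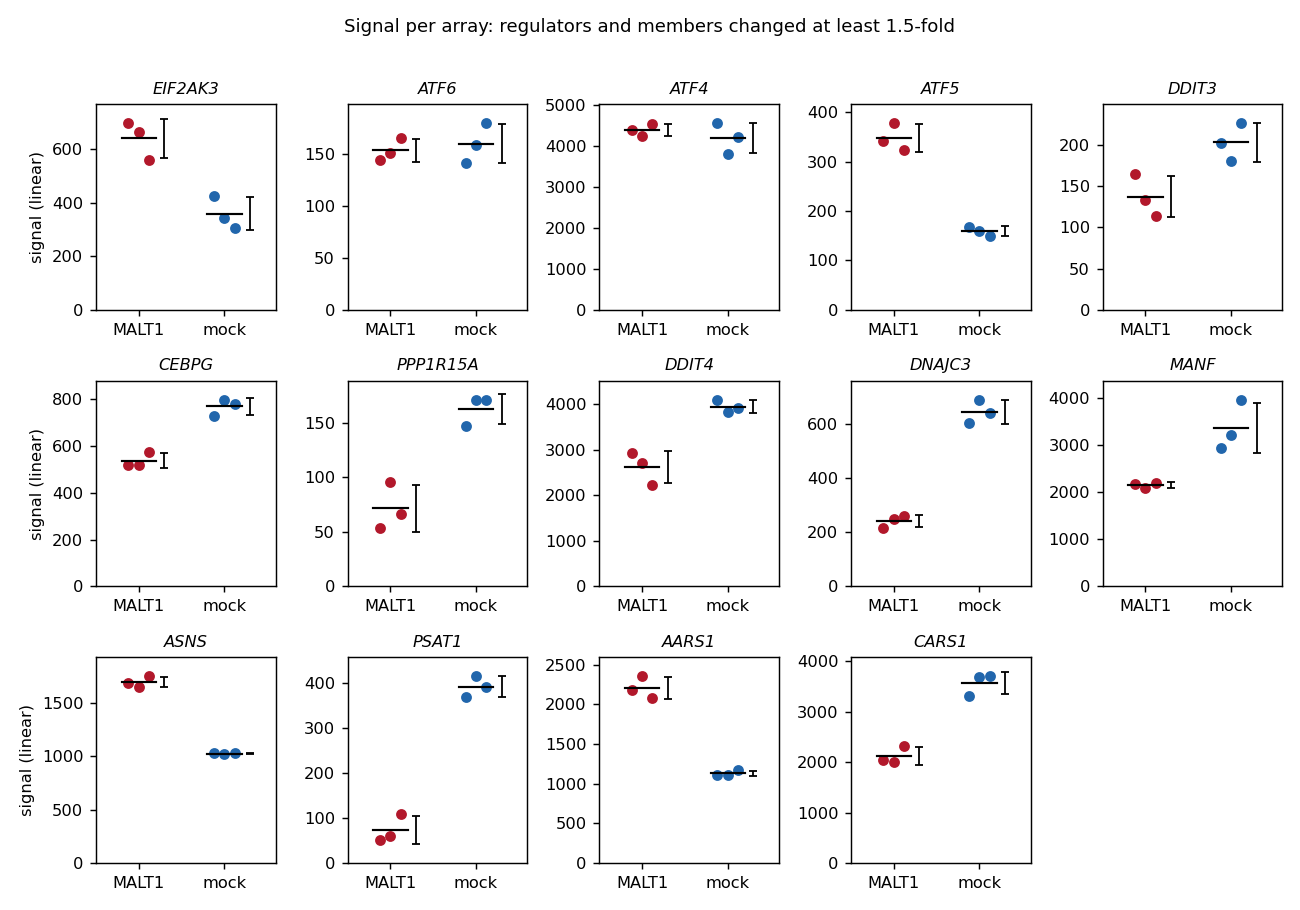
Linear signal on each array for the sensors and regulators and for the other members called with a change of at least 1.5-fold, with arrays labelled MALT1 left of arrays labelled mock, 1 point per array, a line for the group mean and a bracket beside it for the mean ± SD, on axes that start at 0. ATF4 and ATF6 overlap between the groups, whereas EIF2AK3, ATF5, ASNS and AARS1 are higher and CEBPG, PPP1R15A, DNAJC3, MANF, DDIT4, PSAT1 and CARS1 are lower on the arrays labelled MALT1 with no overlap.

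The ER folding and translocation genes were called about as often as equally bright genes, in both directions as all genes were. Of 15 measured, 3 were called higher (PDIA6, CRELD2 and SEC61B), 5 lower (HSPA5, HSP90B1, DNAJC3, PDIA3 and MANF) and 7 in neither direction, and their median log2 fold change was -0.04. The share called was 53.3%, against 40.4% of all genes and 56.8% of the brighter ones. Over all 18 measured ER genes, degradation genes included, 6 were called lower and 4 higher. With arrays centred on their medians, limma called 5 of the 18 lower and 0 higher, with 3 higher at an unadjusted p under 0.05. The lower ones there were HSPA5, DNAJC3, PDIA3, MANF and the degradation gene SEL1L, whereas HSP90B1 lost its call (adjusted p = 0.0562). PDIA6, CRELD2 and SEC61B kept their direction there without passing. That setting also tilted all 22215 probe sets, with 3179 called higher and 4193 lower, against 4130 and 3787 without it.

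HSPA5, the lumenal chaperone BiP that also holds the ER sensors inactive, had signals of 8289, 8441 and 8386 on the arrays labelled MALT1, against 11292, 11222 and 12878 on the arrays labelled mock. The groups were separate, and HSPA5 was 1.41-fold lower (log2 fold change -0.49 ± 0.09 SE, adjusted p = 0.0123). HSP90B1, the ER chaperone endoplasmin, averaged 5393 ± 757 on the arrays labelled MALT1 and 7486 ± 361 on the arrays labelled mock (SD, n = 3 each). Its log2 fold change was -0.48 (adjusted p = 0.0432), both of its probe sets were called lower, and its adjusted p was 0.0518 to 0.119 when any 1 of the 6 arrays was left out.

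DNAJC3, a co-chaperone of HSPA5 also known as an inhibitor of eIF2 kinases, changed most among the ER genes. It had signals of 216.6, 249.3 and 259.2 on the arrays labelled MALT1, against 603.6, 691.4 and 640.9 on the arrays labelled mock. The highest array labelled MALT1 was far below the lowest array labelled mock, and DNAJC3 was 2.67-fold lower (log2 fold change -1.41 ± 0.11 SE, adjusted p = 0.00065). The related co-chaperone DNAJB9 averaged 645.9 ± 8.56 on the arrays labelled MALT1 and 554.9 ± 22.6 on the arrays labelled mock and was not called (log2 fold change 0.22, adjusted p = 0.0938).

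MANF, a secreted ER stress protein that binds HSPA5, had signals of 2169, 2084 and 2198 on the arrays labelled MALT1, against 2937, 3202 and 3958 on the arrays labelled mock, and was 1.55-fold lower (log2 fold change -0.63 ± 0.14 SE, adjusted p = 0.0183). The arrays labelled mock were spread more widely, and the adjusted p of MANF reached 0.0632 at most when single arrays were left out, missing the threshold without MALT1 replicate 1, without MALT1 replicate 2 and without mock replicate 2. CRELD2, another secreted ER stress protein, lay on the other side, at 3309 ± 179 on the arrays labelled MALT1 and 2290.4 ± 108 on the arrays labelled mock (log2 fold change 0.53, adjusted p = 0.00862).

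The disulfide isomerases also went both ways. PDIA6 averaged 6618 ± 160 on the arrays labelled MALT1 and 4681 ± 165 on the arrays labelled mock, a log2 fold change of 0.50 (adjusted p = 0.00684), and all 4 of its probe sets were called higher. PDIA3, which works with calnexin and calreticulin on glycoproteins, averaged 4688 ± 240 (SD) on the arrays labelled MALT1 and 6228 ± 259 on the arrays labelled mock, a log2 fold change of -0.41 (adjusted p = 0.0185). Its adjusted p reached 0.062 at most when single arrays were left out, missing the threshold without MALT1 replicate 1 or without any 1 of the 3 arrays labelled mock. The brightest PDIA4 probe set was not called at 0.16, whereas its other one was called higher at 0.50.

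The lectin chaperones of the glycoprotein folding cycle were not called. CANX, the membrane-bound calnexin, averaged 7756 ± 319 on the arrays labelled MALT1 and 7455 ± 517 on the arrays labelled mock, a log2 fold change of 0.06 (95% confidence interval -0.18 to 0.30) that turned to -0.04 with quantile normalization. CALR, the soluble calreticulin, stood at -0.13 (95% confidence interval -0.34 to 0.09) in its brightest probe set. Both of its other probe sets were called lower, at -0.33 and -0.65, so its call depended on the probe set. HYOU1, a large HSP70-type chaperone and exchange factor for HSPA5, SDF2L1, a partner of the ER co-chaperones, and NUCB2, a calcium-binding protein, stood at -0.15, 0.09 and -0.04 and were not called, and the sign of SDF2L1 turned to -0.04 with arrays centred on their medians.

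SEC61B, a subunit of the channel through which new proteins enter the ER, averaged 10632 ± 706 on the arrays labelled MALT1 and 7582 ± 641 on the arrays labelled mock (log2 fold change 0.49, adjusted p = 0.0199). Its adjusted p reached 0.0647 at most when single arrays were left out, missing the threshold without MALT1 replicate 1, MALT1 replicate 2, mock replicate 1 or mock replicate 3.

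The 3 members of ER-associated degradation each gave a different call. EDEM1, a lectin that hands misfolded glycoproteins to degradation, averaged 500.8 ± 21.2 on the arrays labelled MALT1 and 395.1 ± 11.3 on the arrays labelled mock and was called higher (log2 fold change 0.34, adjusted p = 0.0279). SEL1L, the scaffold of the ubiquitin ligase SYVN1, averaged 1070.5 ± 41.7 on the arrays labelled MALT1 and 1466 ± 141 on the arrays labelled mock and was called lower (log2 fold change -0.45, adjusted p = 0.0249), as were 2 of its 4 probe sets. HERPUD1, which joins the same ligase complex, had no overlap between its groups, with signals of 1567 to 1846 on the arrays labelled MALT1 against 1359 to 1455 on the arrays labelled mock, but was not called (log2 fold change 0.27, adjusted p = 0.093). The adjusted p of EDEM1 reached 0.0929 and that of SEL1L 0.0838 when single arrays were left out. The call of EDEM1 held only without MALT1 replicate 3 and that of SEL1L only without mock replicate 3.

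Several ER genes of opposite direction carry the same promoter element, and the sequences are shown for that reason. Promoters from 250 bases before to 50 after the gene start (RefSeq, GRCh38.p14) were available for 39 of the 41 genes, not for PDIA3 and SHMT2. The ER stress element ERSE, the classical binding sequence of NF-Y with ATF6, was searched on both strands as CCAAT and CCACG with 9 bases of any kind between them. It was found in 27 of all 35116 promoters (0.0769%), or 0.0916% of genes, and in 6 of the 19 ER genes with a promoter. The 4 of these genes that were called follow, 5′ to 3′ along the gene's strand with the element in capitals. HSPA5 lies on the minus strand at chr9:125241376-125241424, HSP90B1 on the plus strand at chr12:103930201-103930249 and chr12:103930306-103930354, PDIA6 on the minus strand at chr2:10812838-10812886 and CRELD2 on the plus strand at chr22:49918539-49918587. In the sequences marked reverse, the capitals hold the element's reverse complement.
HSPA5 (lower): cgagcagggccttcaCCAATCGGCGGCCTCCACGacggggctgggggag
HSP90B1 (lower, first): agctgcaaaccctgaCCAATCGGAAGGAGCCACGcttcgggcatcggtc
HSP90B1 (lower, second, reverse): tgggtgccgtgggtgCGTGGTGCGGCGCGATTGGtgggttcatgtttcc
PDIA6 (higher): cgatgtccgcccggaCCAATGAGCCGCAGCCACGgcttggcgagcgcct
CRELD2 (higher, reverse): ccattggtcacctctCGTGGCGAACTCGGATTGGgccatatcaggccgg

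Thus HSPA5 and HSP90B1, with log2 fold changes of -0.49 and -0.48, and PDIA6 and CRELD2, with 0.50 and 0.53, hold the same ERSE letters, and so do CALR and CANX, which were not called. The shorter ERSE-II was searched as ATTGG and CCACG with 1 base of any kind between them. It was found in 19 of all promoters (0.0541%), or 0.0696% of genes, and in HYOU1, SDF2L1 and HERPUD1. None of these 3 was called by limma, and 1 of them, HERPUD1, had an unadjusted p under 0.05. Among ER genes with either element, 2 were called higher, 2 lower and 5 in neither direction. Among the 8 measured ER genes with a promoter and neither element, the counts were 2 higher, 3 lower and 3 in neither direction. Of all genes 40.4% were called, and of the brighter ones 56.8%. With so few genes, no more is read from these counts. DNAJC3, MANF and SEL1L, all lower, hold neither element in this window. A match is a description of letters, not a measured binding site. Because the ER genes were listed for this response, how often they hold its elements is no independent result.

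**Figure D4:**
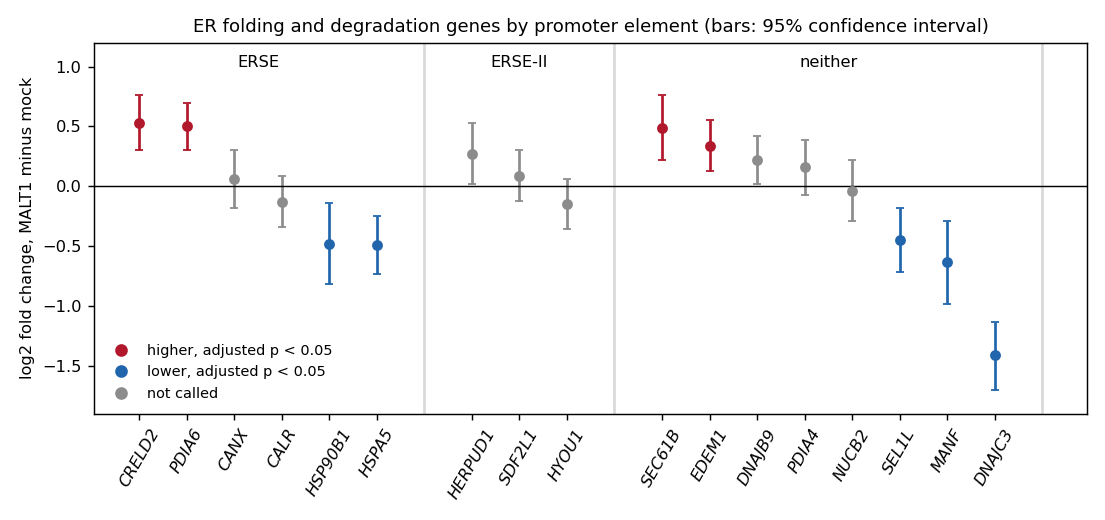
Log2 fold change of the measured ER genes that have a promoter (vertical axis, arrays labelled MALT1 minus arrays labelled mock), grouped by whether the promoter holds ERSE, ERSE-II or neither, with bars for the 95% confidence interval and colours for the call. Genes with ERSE lie on both sides of 0, from HSPA5 at -0.49 to CRELD2 at 0.53, and genes with neither element from DNAJC3 at -1.41 to SEC61B at 0.49.

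Of the 14 genes of the ATF4 type, 6 were called higher, 3 lower and 5 in neither direction. Their median log2 fold change was 0.25, against 0.08 over all genes and -0.00 over the brighter ones. Over the alternatives run, this median lay between 0.12 and 0.33. It was 0.12 with median centring, a setting that also moved the median of all probe sets from 0.08 to -0.05. The ATF4-type median was also 0.12 with the brightest probe set ending in neither s_at nor x_at. The 23 measured further ATF4-type targets described below had a median of -0.16. The share called was 64.3%, against 40.4% of all genes and 56.8% of the brighter ones, and with 14 genes no more is read from it. With arrays centred on their medians, 3 were called higher and 3 lower, while 3179 of all 22215 probe sets were called higher and 4193 lower. The higher genes were enzymes of asparagine and one-carbon metabolism and transfer RNA synthetases, and the lower ones were DDIT4, PSAT1 and CARS1.

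Of the 4 stress targets, DDIT4 was lower and the other 3 were not called. DDIT4, an inhibitor of the growth kinase complex mTORC1, had signals of 2918, 2714 and 2228 on the arrays labelled MALT1, against 4101, 3832 and 3905 on the arrays labelled mock. The groups did not overlap, and DDIT4 was 1.51-fold lower (log2 fold change -0.60 ± 0.13 SE, adjusted p = 0.0185). Its adjusted p reached 0.0652 at most when single arrays were left out, missing the threshold without MALT1 replicate 2 or without any 1 of the 3 arrays labelled mock.

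TRIB3, a pseudokinase that restrains ATF4 and AKT, averaged 1252 ± 36.7 on the arrays labelled MALT1 and 1089 ± 59.6 on the arrays labelled mock, with no overlap, and was not called (log2 fold change 0.20, adjusted p = 0.14). CHAC1, a glutathione-degrading enzyme often read as a marker of ATF4 activity, was faint, with signals of 40.6, 19.6 and 38.1 on the arrays labelled MALT1 and 38.0, 20.9 and 36.5 on the arrays labelled mock. VLDLR, a lipoprotein receptor, was also faint at 51.2 ± 10.3 on the arrays labelled MALT1 and 49.6 ± 5.74 on the arrays labelled mock. Both overlapped between groups, and at this brightness the interval of the CHAC1 log2 fold change ran from -0.93 to 0.98 and that of VLDLR from -0.43 to 0.49, so changes within those bounds were not detectable. The signs of CHAC1 and VLDLR turned under quantile normalization, to -0.20 and -0.15.

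The serine, one-carbon and asparagine enzymes held the largest change of all 39 genes. PSAT1, the aminotransferase of the serine pathway's middle step, had signals of 50.8, 59.4 and 108.4 on the arrays labelled MALT1, against 370.6, 416.2 and 391.5 on the arrays labelled mock. The groups lay far apart, with MALT1 replicate 3 the highest of its group, and PSAT1 was 5.62-fold lower (log2 fold change -2.49 ± 0.30 SE, adjusted p = 0.00262). Without MALT1 replicate 3 or any other single array, its log2 fold change stayed between -2.81 and -2.27.

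PHGDH, the enzyme of the step before it, was not called. Its signals were 556.7, 571.0 and 619.1 on the arrays labelled MALT1, against 381.6, 519.1 and 486.5 on the arrays labelled mock. The groups did not overlap, but the log2 fold change of 0.34 missed the threshold (adjusted p = 0.137). PSPH, the phosphatase of the last step and not one of the 41 genes, averaged 1112 ± 84.3 on the arrays labelled MALT1 and 4860 ± 680 on the arrays labelled mock, a log2 fold change of -2.12 ± 0.14 (SE, adjusted p = 0.00037). Both PSPH probe sets were lower, though a near-identical pseudogene means that this signal may not be of PSPH alone.

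ASNS, asparagine synthetase, had signals of 1683, 1650.0 and 1750.4 on the arrays labelled MALT1, against 1029.6, 1018 and 1027 on the arrays labelled mock, with no overlap. It was 1.65-fold higher (log2 fold change 0.72 ± 0.08 SE, adjusted p = 0.0017). MTHFD2, a mitochondrial folate enzyme, averaged 8039 ± 528 on the arrays labelled MALT1 and 5672 ± 269 on the arrays labelled mock, a log2 fold change of 0.50 (adjusted p = 0.0118). SHMT2, which splits serine in mitochondria to feed the same folate cycle, averaged 2588 ± 255 on the arrays labelled MALT1 and 1924 ± 43.6 on the arrays labelled mock and was called higher (log2 fold change 0.42, adjusted p = 0.0286). Only 1 of its 3 probe sets was called, and another stood at -0.09. The adjusted p of SHMT2 reached 0.0868 at most when single arrays were left out, missing the threshold without MALT1 replicate 1 or without any 1 of the 3 arrays labelled mock.

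**Figure D5:**
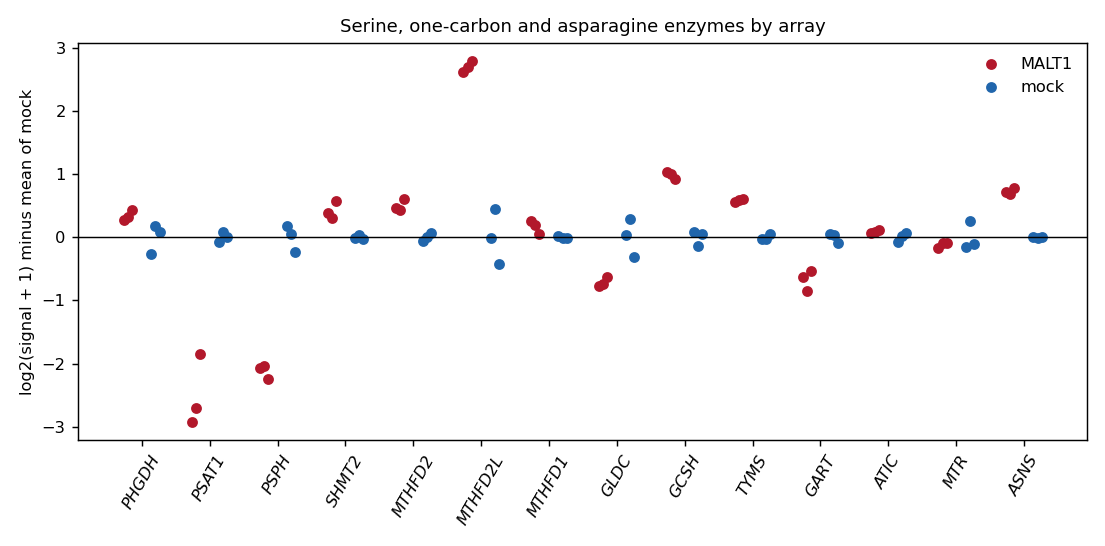
Log2(signal + 1) on each array minus the mean of the arrays labelled mock (vertical axis) for the serine, one-carbon and asparagine enzymes, with arrays labelled MALT1 left of arrays labelled mock for each gene. PSAT1, with a log2 fold change of -2.49, and PSPH, with -2.12, lie below 0 on the arrays labelled MALT1, whereas ASNS and MTHFD2 lie above it at 0.72 and 0.50.

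Among the 5 aminoacyl-tRNA synthetases, which load amino acids onto their transfer RNAs, 3 were higher, 1 was lower and 1 was not called. The share called was 80%, against 40.4% of all genes and 56.8% of the brighter ones. It was 16.7% among the 12 other cytosolic synthetases measured, and with 5 genes no more is read from it. AARS1, the alanine enzyme, had signals of 2183, 2356 and 2084 on the arrays labelled MALT1, against 1109.8, 1108 and 1170.2 on the arrays labelled mock, and was 1.95-fold higher (log2 fold change 0.97 ± 0.09 SE, adjusted p = 0.00108). CARS1, the cysteine enzyme, had signals of 2045, 1993 and 2320.2 on the arrays labelled MALT1, against 3311, 3687 and 3709 on the arrays labelled mock, and was 1.69-fold lower (log2 fold change -0.75 ± 0.11 SE, adjusted p = 0.00432). In both genes the groups were separate, in opposite directions, and both CARS1 probe sets were called lower.

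SARS1, the serine enzyme, averaged 2302 ± 69.3 on the arrays labelled MALT1 and 1647 ± 64.1 on the arrays labelled mock (log2 fold change 0.48, adjusted p = 0.00832). WARS1, the tryptophan enzyme and also an interferon-inducible gene, averaged 969.1 ± 25.6 on the arrays labelled MALT1 and 788.3 ± 22.9 on the arrays labelled mock (log2 fold change 0.30, adjusted p = 0.0371). Its other probe set stood at -0.09, and its adjusted p was 0.0623 to 0.117 when any 1 of the 6 arrays was left out. GARS1, the glycine enzyme, stood at -0.03 (95% confidence interval -0.26 to 0.20) with overlapping groups.

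The element read by ATF4 with its C/EBP partners, CARE, was searched as TGATGNAA on both strands. It was found in 1270 of all 35116 promoters (3.62%), or 4.46% of genes. Of the 13 ATF4-type genes with a promoter, 5 held it: ASNS, AARS1, CARS1, CHAC1 and GARS1. It was also in CEBPG and HERPUD1. The 4 of these that were called are shown to compare higher with lower genes. ASNS lies on the minus strand at chr7:97872454-97872491, AARS1 on the minus strand at chr16:70289671-70289708, CARS1 on the minus strand at chr11:3057418-3057440 and CEBPG on the plus strand at chr19:33374056-33374093. Capitals mark the element, as its reverse complement where marked reverse.
ASNS (higher): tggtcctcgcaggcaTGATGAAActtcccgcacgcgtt
AARS1 (higher, reverse): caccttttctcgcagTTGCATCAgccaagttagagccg
CARS1 (lower, reverse): cttccggggcggcggTTGCATCA
CEBPG (lower): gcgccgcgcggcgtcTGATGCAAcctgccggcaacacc

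Of the 5 ATF4-type genes with CARE, 2 were called higher, 1 lower and 2 in neither direction. Of the 8 measured ones with a promoter but no CARE in this window, 3 were higher, 2 lower and 3 in neither direction. Against 40.4% of all genes and 56.8% of the brighter ones called, no more is read from so few genes. Because these genes were listed as ATF4-type, how many of them hold CARE is no independent result. AARS1, at 0.97, and CARS1, at -0.75, hold the identical reverse letters. The remaining element searched was UPRE, written TGACGTGG and known as a binding sequence of XBP1 and ATF6. It was found in 0.729% of all promoters (0.927% of genes), in HYOU1 (where it overlaps ERSE-II) and in CARS1. The CARS1 match, at chr11:3040946-3040968, lies in another promoter window of the gene than its CARE.

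Genes of the same pathways outside the 41 were read from 8 lists. Of 12 other sensors and activators of the unfolded protein response, 3 were called higher, 1 lower and 8 in neither direction. XBP1, the factor activated by ERN1 through splicing, averaged 5203 ± 473 on the arrays labelled MALT1 and 1295 ± 116 on the arrays labelled mock, 4.01-fold higher (log2 fold change 2.01 ± 0.12 SE, adjusted p = 0.00027). XBP1 is also one of the 18 luminal markers. The others called were CREB3L2 at 0.46 and NFYC, a subunit of the CCAAT-binding NF-Y, at 0.57, with the ER-bound factor CREB3 at -0.62.

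Of 10 measured genes of the other eIF2 kinases, eIF2 and eIF2B, 3 were higher, 1 lower and 6 not called. EIF2B4 and EIF2B5, subunits of the exchange factor that phosphorylated eIF2 blocks, stood at 0.75 and 0.39, and the eIF2 subunit EIF2S2 at -0.51. The haem-regulated kinase EIF2AK1 stood at 0.79, but its 2 probe sets were called in opposite directions.

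Of 21 measured other ER folding enzymes, 5 were higher, 7 lower and 9 not called. ERP29 and the HSPA5 co-chaperone DNAJC1 were higher at 1.24 and 1.40, whereas the prolyl isomerase FKBP14 and ERO1A, the oxidase that recharges disulfide isomerases, were lower at -1.54 and -1.44. Of 17 measured other degradation genes, 4 were higher, 3 lower and 10 not called, led by UBXN4 at 0.91, DERL1 at 0.86, WFS1 at 1.18 and ERLIN2 at -0.64. Of 20 measured translocon and signal peptidase genes, 5 were higher, 3 lower and 12 not called, with SRP54 at 1.06, SSR2 at 0.63, TRAM1 at -1.05 and SSR3 at -0.60. The shares called were 57.1% of the folding enzymes, 41.2% of the degradation genes and 40% of the translocon genes. Of all genes 40.4% were called, and of the brighter ones 56.8%. The folding share lay near that of the brighter genes. The degradation and translocon shares lay near that of all genes and below that of the brighter ones.

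Of 23 measured further ATF4-type targets, 5 were higher, 8 lower and 10 not called. The 56.5% called lay near the 56.8% of the brighter genes, and 40.4% of all genes were called. GDF15, a stress cytokine, averaged 310.2 ± 16.2 on the arrays labelled MALT1 and 26.0 ± 5.70 on the arrays labelled mock, 11.7-fold higher (adjusted p = 0.00019), with 1 of its 2 probe sets called. PMAIP1, the pro-apoptotic NOXA, stood at -1.86. SLC3A2 and SLC7A11, the paired subunits of the cystine importer, were lower at -1.23 and -0.97.

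Of 12 measured further serine and one-carbon genes, 3 were higher, 3 lower and 6 not called, with MTHFD2L, a relative of MTHFD2, at 2.70, the glycine cleavage protein GCSH at 0.98, thymidylate synthase TYMS at 0.58 and PSPH as given above. Of 12 other measured cytosolic synthetases, 1 was higher, YARS1 at 0.38, 1 was lower, RARS1 at -0.56, and 10 were not called, among them VARS1 at 0.30 (adjusted p = 0.0665) and EPRS1 at 0.34 (adjusted p = 0.13). The lists not yet given a share had 33.3% of the sensors and activators and 40% of the eIF2 genes called. For the serine and one-carbon genes the share was 50%, and for the synthetases 16.7%. These stand against the same 40.4% of all genes and 56.8% of the brighter ones.

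Markers of other cell kinds were also read. Of 9 plasma cell genes, chosen because those cells carry a strong secretory programme, 1 (SDC1) was called, as lower, and TNFRSF17, MZB1, JCHAIN and POU2AF1 were dim on all 6 arrays. Their signals summed to between 1023 and 1123 on the arrays labelled MALT1, against 1736 and 1865 on the arrays labelled mock. Nearly all of that was SDC1, a gene that epithelial cells also express, at 968.2 to 992.5 on the arrays labelled MALT1 against 1663 to 1756 on the arrays labelled mock, so the sum does not speak for the other plasma cell genes. Of 9 fibroblast genes, 1 (LUM) was called, as lower, and 2 were dim on all arrays. In the plasma cell list and the fibroblast list alike 11.1% were called, against 40.4% of all genes (19.2% as lower). LUM was dim on all arrays labelled MALT1 and stood at 17.8 to 21.2 on the arrays labelled mock. These values lie just above the dim level of 17.6, so its fold is bounded only at 1.1 or more. The fibroblast sums lay between 145.6 and 275.9 on the arrays labelled MALT1, against 159.8 and 212.1 on the arrays labelled mock.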

How the data were processed

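The members, gene lists, markers and motifs were chosen with earlier results of these data known. The authors deposited 1 linear intensity value per probe set and array. Which software made them is not stated in the labels used here. Each array had been scaled, as its values show, to a 2% trimmed mean of 500.1 to 500.2, and no detection call was used. Of 22277 probe sets, 62 controls were left out and 22215 were tested with no filter. In the platform annotation 19064 had 1 gene symbol, 1043 several and 2108 none, and the gene IDs of 19052 single-symbol ones were in RefSeq GRCh38.p14.

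Values were tested as log2(signal + 1), which understates the change of dim genes, with limma 3.58.1 in R 4.3.3 (lmFit, eBayes, two-sided, Benjamini-Hochberg over 22215 probe sets) on all 6 arrays with group as the only term. The scripts were tested on simulated data. Groups came from the titles, with 3 arrays each. Deviations of same-numbered arrays from their group means correlated at 0.0586, -0.00249 and 0.0607. Over all pairings of an array labelled MALT1 with one labelled mock, the correlations ran from -0.082 to 0.0607. With 3 arrays per group, such values cannot settle whether the numbers mark pairs. The main fit did not use the numbers. Probe sets whose ID ends in s_at or x_at may bind several transcripts.

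Members with a called change of at least 1.5-fold, and the sensors and regulators, were given array by array, and the rest by mean or range, except that HSPA5, CHAC1 and PHGDH were given array by array after their values were seen. Of each other list, the 4 genes with the smallest adjusted p were named. The alternatives were quantile normalization, median centring, a pseudocount of 16, brighter probe sets only, other choices of probe set, an intensity trend, a replicate block and leaving out each array.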

Additional observations from a re-analysis of the deposited data

How the results depend on the processing

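With arrays centred on their medians, 5 members were called higher, including 0 of the ER genes (limma, 3 at an unadjusted p under 0.05) and 3 of the ATF4 type, and HSP90B1, PDIA6, CRELD2, SEC61B, EDEM1, SHMT2, SARS1 and WARS1 lost their calls. Of these, HSP90B1 moved to -0.61, against -0.48 as deposited, with an adjusted p of 0.0562, and the other 7 moved toward 0. The SE of HSP90B1 rose from 0.13 to 0.19. This setting subtracts a single constant from each array, so every log2 fold change shifted down by the same amount. Centring changed the calls over all 22215 probe sets from 4130 higher and 3787 lower to 3179 higher and 4193 lower. With an intensity trend, and with brighter probe sets only, DNAJB9, HERPUD1, DDIT3, TRIB3 and PHGDH gained calls. Each of these settings gave 16 members higher and 12 lower, and 6 ER genes higher. Over all 22215 probe sets, the trend gave 4644 higher and 4386 lower. Over the 11108 brighter ones, 3670 were higher and 3868 lower. PDIA4 and CALR gained calls with other choices of probe set, and ATF6 with the mean of probe sets. With the replicate number as a block, 6 members were called higher and 5 lower, with 0 ER genes higher (limma, 4 at an unadjusted p under 0.05) and 1 lower. Of all 22215 probe sets, 3013 were called higher and 2795 lower in the block fit. Whether the numbers mark pairs is not known. The median log2 fold change over the members stayed at 0.06 with the block, so fewer calls there do not mean smaller changes. With the mean of all probe sets of a gene, 4 regulators were called lower. Leaving out 1 array at a time gave 7 to 11 members higher and 6 to 9 lower, 2 to 4 ER genes higher and 2 to 4 lower, 4 to 5 ATF4-type genes higher and 2 to 3 lower, and 1 to 2 regulators higher and 2 to 3 lower. Calls of DNAJC3, ATF5, CEBPG, PPP1R15A, ASNS, PSAT1, MTHFD2, AARS1 and CARS1 held under every alternative run. Of called genes only SHMT2 changed sign, to -0.09 with a probe set ending in neither s_at nor x_at. Signs of genes not called also turned: CANX to -0.04 (quantile), -0.07 (median centring) and -0.06 (mean of probe sets), SDF2L1 to -0.04 and ATF4 to -0.06 (median centring), CHAC1 to -0.20 (quantile) and -0.11 (median centring), and VLDLR to -0.15 (quantile) and -0.10 (median centring). Leaving out single arrays moved NUCB2 between -0.08 and 0.04, ATF6 between -0.14 and 0.03, CHAC1 between -0.24 and 0.35, VLDLR between -0.12 and 0.15 and GARS1 between -0.06 and 0.02. The sign turns under median centring follow from its common downward shift. The causes of the other changes were not tested.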
